A study of Mus musculus with 13 samples.

Results

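The regions described here were wild-type glucocorticoid receptor (GR) peaks called under dexamethasone (Dex) alone that lay at positions also listed under Dex with lipopolysaccharide (LPS). A peak of either wild-type Dex library counted as recurring when it overlapped by at least 1 bp any of the 24673 Dex+LPS peaks. By this rule 104 of 412 peaks of library 1 recurred (25.2%) and 198 of 854 peaks of library 2 (23.2%), which makes 302 of 1266 wild-type Dex peaks and 302 of the 26052 peaks of the whole series. The 302 peaks merged into 276 separate sites, of which 29 overlapped a peak of both libraries, and the deposited annotation assigned these sites to 231 genes. The peaks were thus chosen by called peak positions in these same libraries, so the recurring share is a description and was not tested.

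GR binding was mapped by chromatin immunoprecipitation and sequencing in fibroblasts grown out of male C57BL/6 mouse embryos taken at embryonic day 13.5 and cultured for 7 days. All groups received 1 µM Dex, a synthetic glucocorticoid, for 16 h. The Dex groups comprised 2 libraries with wild-type receptor (GR wt/wt) and 2 with the zinc finger mutant (GR Zn/Zn). The Dex+LPS groups comprised 3 wild-type, 4 GR Zn/Zn and 2 GR knockout libraries, which received LPS, a bacterial cell wall component, for 3 h at 100 ng/µl as the labels give the dose. There was no group without Dex. The Dex+LPS data were 3 merged lists, named as free of knockout peaks: 18953 wild-type-specific peaks, 3533 peaks shared by both genotypes and 2187 mutant-specific peaks. Each Dex library had a list of its own, whose name mentions no removal of knockout peaks. Embryonic fibroblasts are a mixed primary culture, and peak positions carry no expression level, so the cell type in the labels could not be checked against markers.

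GR is a ligand-activated transcription factor that enters the nucleus when a glucocorticoid binds it. It binds DNA as a dimer at palindromic response elements, and it also associates with factors such as AP-1 and NF-κB that are already on chromatin. In many cell types it raises transcription of feedback genes, clock genes and metabolic genes, and it lowers transcription of inflammatory genes.

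Sequence was available for promoter windows, each running from 250 bp before to 50 bp after a gene start. Recurring peaks overlapped only 2 of 32851 such windows, those of Slc10a6, a transporter of sulfated steroids, and of A230028O05Rik. The parts of the windows upstream of the start and under the recurring peak are shown because they are the recurring sequence that could be read. They are from RefSeq, build GRCm38, 5′ to 3′ on the gene's strand. Capitals mark a match to the GR palindrome, searched as GNACA and TGTNC with 3 bases of any kind between them.
Slc10a6, minus strand, chr5:103629417-103629653: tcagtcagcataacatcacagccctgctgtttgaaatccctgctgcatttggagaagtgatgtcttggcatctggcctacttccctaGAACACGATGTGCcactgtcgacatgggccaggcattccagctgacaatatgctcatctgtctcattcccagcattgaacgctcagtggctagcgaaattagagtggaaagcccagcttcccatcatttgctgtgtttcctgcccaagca
A230028O05Rik, plus strand, chr16:25059389-25059635: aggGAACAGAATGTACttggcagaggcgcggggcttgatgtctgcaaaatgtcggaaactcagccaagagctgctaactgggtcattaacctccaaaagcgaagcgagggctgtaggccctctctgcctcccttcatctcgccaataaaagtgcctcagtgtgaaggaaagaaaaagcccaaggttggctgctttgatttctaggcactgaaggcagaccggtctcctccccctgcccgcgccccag
Both windows held the palindrome, on either strand, against 156 of all 32851 windows (0.475%). Slc10a6 was named after its sequence had been seen. In Slc10a6 the match GAACACGATGTGC was centred 157 bp from the start and 9.5 bp from the middle of the Dex peak of library 1, the only library with a peak there. In A230028O05Rik the match GAACAGAATGTAC was centred 241 bp from the start, 11.5 bp from the Dex peak's middle in library 1 and 36 bp in library 2. Both sites lay at wild-type-specific Dex+LPS peaks, whose middles were 58.5 and 30.5 bp from the match. The single element AGAACA, searched on both strands, occurred once in the Slc10a6 stretch, overlapping the palindrome. No match to the AP-1 letters TGANTCA was found in either stretch. Among windows under any wild-type-specific Dex+LPS peak, 10 of 1081 held the palindrome (0.925%, exact 95% interval 0.444 to 1.69%). Under shared peaks it was 2 of 345, and under mutant-specific peaks 0 of 184. The 3 windows under other wild-type Dex peaks (Dynll1, Gm13830 and Fut8) and the 5 under mutant Dex peaks held none. The remaining recurring sites lay outside these windows, and their sequence was not analysed here.

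Recurring sites lay at several of the best known glucocorticoid-induced genes. Of 50 known GR target genes listed, 8 had a wild-type Dex peak and 6 a recurring site: Fkbp5, Per1, Per2, Zbtb16, Cdkn1a and Pdk4. By peaks, 7 of the 214 Dex+LPS peaks assigned to these 50 genes were overlapped by a wild-type Dex peak (3.27%), against 287 of all 24673 Dex+LPS peaks (1.16%). The gene lists were chosen with earlier results of these data known, so the shares of the lists are descriptions, and they were not tested. In the clock list, 2 of 19 genes had a recurring site, Per1 and Per2, and 2 of the list's 38 Dex+LPS peaks were overlapped (5.26%). In the zinc finger and BTB list, it was Zbtb16 and Klf13 of 15 genes, and 2 of 108 peaks (1.85%), near the share over all peaks. Of these genes, Klf13 alone was not already counted among the known targets. Genes of the inflammatory NF-κB list carried no recurring site in 40 genes, although 35 of them had 201 Dex+LPS peaks between them. No gene of the NF-κB, AP-1 or interferon lists had a wild-type Dex peak, so none could have a recurring one. The same count of 0 was found for the 13 AP-1 family genes with 56 Dex+LPS peaks, the 23 interferon response genes with 89, and the 30 matrix and fibroblast genes with 260. It also held for 16 adipogenesis and lipid genes with 22 peaks, 19 ribosomal and housekeeping genes with 36, and the macrophage, endothelial, muscle, neural and epithelial marker lists, each with 14 peaks or fewer. The ribosomal and marker lists likewise had no gene with a wild-type Dex peak, so their count could only be 0. The matrix and adipogenesis lists had 1 such gene each, and that of the matrix list, Thbs1, had 0 Dex+LPS peaks assigned to it. At the share found over all Dex+LPS peaks, only a few overlaps would fall in lists of these sizes.

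Fkbp5, which encodes a co-chaperone that restrains GR in a feedback loop, had 2 recurring sites, the only listed gene with more than 1. The site 0.608 kb upstream of its start (chr17:28517951-28518394) was called in both libraries. The other, inside the gene 97.2 kb from the start (chr17:28420194-28420452), was called in library 1 only. Both lay at wild-type-specific Dex+LPS peaks, 2 of the 16 Dex+LPS peaks assigned to the gene.

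The period genes Per1 and Per2 encode repressors of the circadian clock. The Per1 site, inside the gene 1.84 kb from its start (chr11:69096905-69097261), was called in both libraries at a shared Dex+LPS peak. The Per2 site, 22.8 kb inside the gene (chr1:91436388-91436619), was called in library 1 at a wild-type-specific peak. Zbtb16, a BTB zinc finger repressor, had a site 98.6 kb inside the gene (chr9:48737440-48737719), and Klf13, a Krüppel-like factor, had one 41.8 kb inside (chr7:63896860-63897250). These sites of Zbtb16 and Klf13 were called in both libraries, each at 1 of the gene's 7 Dex+LPS peaks, all of them wild-type-specific.

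The Cdkn1a site lay at a Dex+LPS peak shared by both genotypes, as did that of Per1, and the Pdk4 site lay at a mutant-specific one. Cdkn1a, the cell cycle inhibitor p21, had a site of 1151 bp located 11.9 kb downstream of its start (chr17:29102347-29103497), in library 2 only. It overlapped 1 of the gene's 3 shared peaks and none of its 4 mutant-specific peaks. Pdk4, a kinase that shuts down the pyruvate dehydrogenase complex, had a site 18.1 kb downstream of its start (chr6:5478035-5478296), also in library 2 only. It lay at the gene's single Dex+LPS peak, which was mutant-specific. Of the listed genes, Lpin1, Hif3a, Klf6 and Thbs1 had a wild-type Dex peak without recurrence. Klf6 had 17 Dex+LPS peaks, while Thbs1 had 0.

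**Figure D1:**
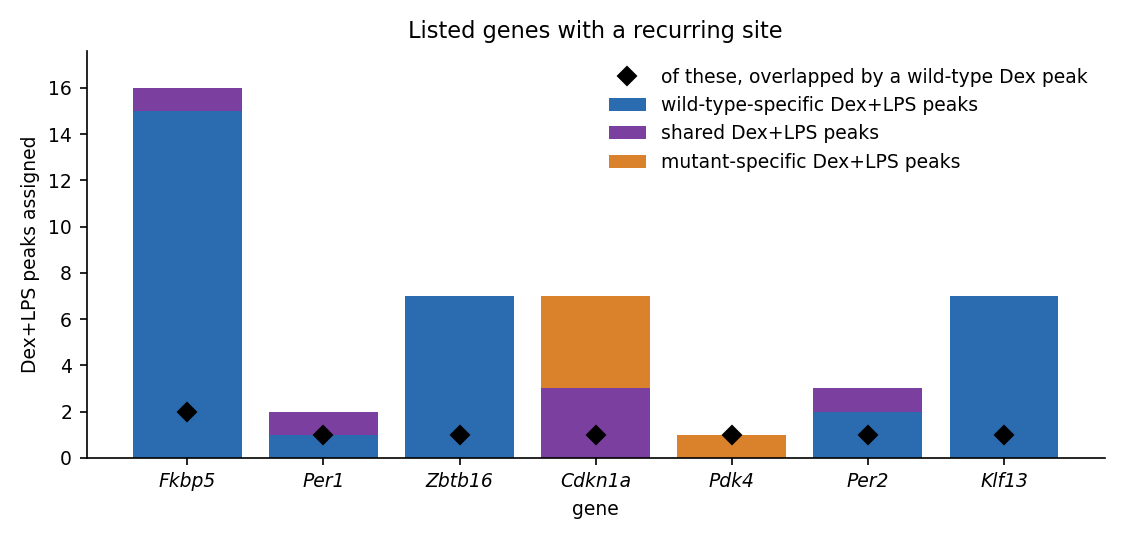
Number of Dex+LPS peaks assigned to each of the 7 listed genes with a recurring site (vertical axis, peaks), stacked by class, with a black diamond at the number overlapped by a wild-type Dex peak. Fkbp5 had 16 Dex+LPS peaks, of which 2 were overlapped; Pdk4 had 1, which was mutant-specific and overlapped.

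Most recurring sites were far from such genes and were concentrated on chromosomes 10 to 14, like the wild-type Dex peaks as a whole. These 5 chromosomes held 72 of the 104 recurring peaks of library 1 (69.2%) and 164 of the 198 of library 2 (82.8%). The shares over all wild-type Dex peaks were 68.2% and 73.9%. Of all Dex+LPS peaks, 8009 of 24673 lay there. Chromosome 10 alone carried 63 of the 276 sites, and no chromosome outside the 5 carried more than the 9 of chromosome 15. At the other end, 4 of 5 Dex peaks recurred on chromosome 19 in each library. None recurred on X, which had only 2 and 3 Dex peaks, nor of the 6 on chromosome 6 in library 1. In library 2, none of the 2 on chromosome 18 and none of the 11 on Y recurred. Because Dex peaks were so unevenly placed, the main values below are also given for these chromosomes and for the rest. Why they held so many peaks was not tested.

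**Figure D2:**
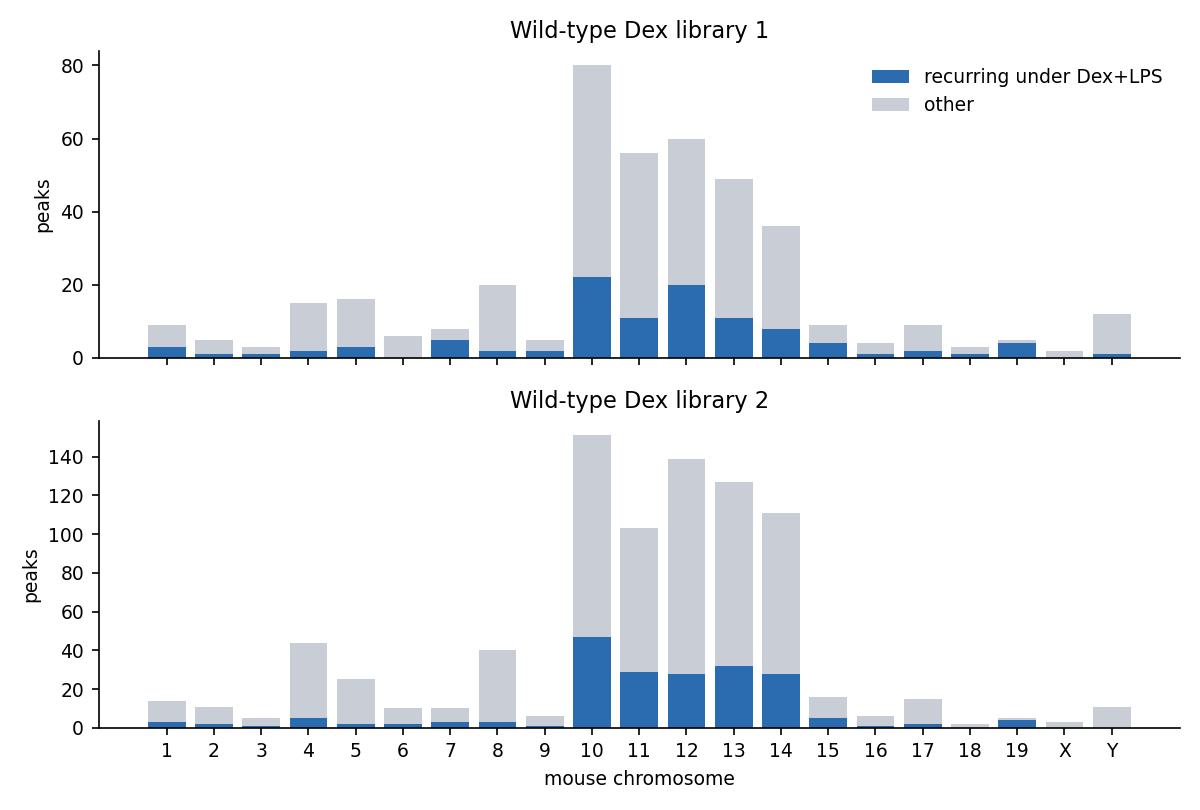
Wild-type Dex peaks per mouse chromosome in library 1 (top) and library 2 (bottom), in peaks, with the recurring peaks in blue and the others in grey. Chromosomes 10 to 14 held 72 of 104 recurring peaks in library 1 and 164 of 198 in library 2; the vertical scales of the libraries differ.

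Several genes on these chromosomes had clusters of recurring sites. Grik2, a kainate-type glutamate receptor subunit, had 6 sites on chromosome 10, spread from 50.8 kb upstream to 2123 kb downstream of its start. They covered 3 wild-type-specific, 2 mutant-specific and 2 shared assignments, 1 site overlapping peaks of 2 classes. Pcdh15, a protocadherin of hair cells, had 4 sites inside the gene, 2 at wild-type-specific and 2 at mutant-specific peaks. Only 1 of these 4 was called in both libraries. Spanxn4 had 4 sites 275 to 669 kb downstream of its start. Vwc2 and 4933402J15Rik had 3 each, all upstream. Apart from a Grik2 site 44.6 kb inside the gene, each of these sites was more than 50 kb from the start of the gene it was assigned to. Apart from Cdkn1a, the widest recurring peaks were on these chromosomes as well: 1250 bp inside Slc35f1, 901 bp downstream of Grik2, 853 bp inside Nalcn and 830 bp downstream of Mir378d.

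The rule did not use the class of the overlapped Dex+LPS peak, and about 50% of recurring peaks lay at wild-type-specific ones. Wild-type-specific peaks were overlapped by 58 of 104 recurring peaks in library 1 (55.8%, exact 95% interval 45.7 to 65.5%) and by 91 of 198 in library 2 (46.0%, 38.9 to 53.2%), against 76.8% of all Dex+LPS peaks. Shared peaks were overlapped by 29.8% (21.2 to 39.6%) and 41.9% (35.0 to 49.1%), against 14.3%. Mutant-specific peaks were overlapped by 15.4% (9.06 to 23.8%) and 15.7% (10.9 to 21.5%), against 8.86%. Both libraries thus had a lower wild-type-specific and a higher shared share than the merged lists. Intervals cover counting error only, since neighbouring peaks of a library are not independent, and with 2 libraries no test was run (the smallest two-sided p that an exact sign-flip test can give is 0.5). A few peaks, 1 in library 1 and 7 in library 2, overlapped more than 1 class and count in each.

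By chromosome, the wild-type-specific share on chromosomes 10 to 14 was 47.2% in library 1 (34 of 72 peaks) and 42.1% in library 2 (69 of 164), against 72.7% of the 8009 Dex+LPS peaks on the same chromosomes. On the remaining chromosomes it was 75.0% (24 of 32, 56.6 to 88.5%) and 64.7% (22 of 34, 46.5 to 80.3%), against 78.8% of 16664 peaks. These intervals contain the share of the merged lists, while that of the 54 sites merged from both libraries there, 64.8% (35 sites, 50.6 to 77.3%), does not. Shared peaks were overlapped by 36.1% and 46.3% of recurring peaks on chromosomes 10 to 14, against 16.4% of all Dex+LPS peaks there. Elsewhere it was 15.6% and 20.6%, against 13.3%. For mutant-specific peaks the shares were 18.1% and 15.9% on chromosomes 10 to 14, against 10.9%, and 9.38% and 14.7% elsewhere, against 7.89%. Outside chromosomes 10 to 14, library 1 was thus near the share over all Dex+LPS peaks for both classes. Seen from the Dex+LPS side, a wild-type Dex peak lay on 7.55% of the 1312 shared peaks of chromosomes 10 to 14 (6.17 to 9.11%), on 4.24% of the 872 mutant-specific peaks (3.00 to 5.80%) and on 1.67% of the 5825 wild-type-specific peaks (1.35 to 2.03%). Elsewhere the 3 shares were 0.540% (0.279 to 0.942%), 0.532% (0.214 to 1.09%) and 0.267% (0.186 to 0.371%), with overlapping intervals. The difference between the chromosome groups was not tested.

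**Figure D3:**
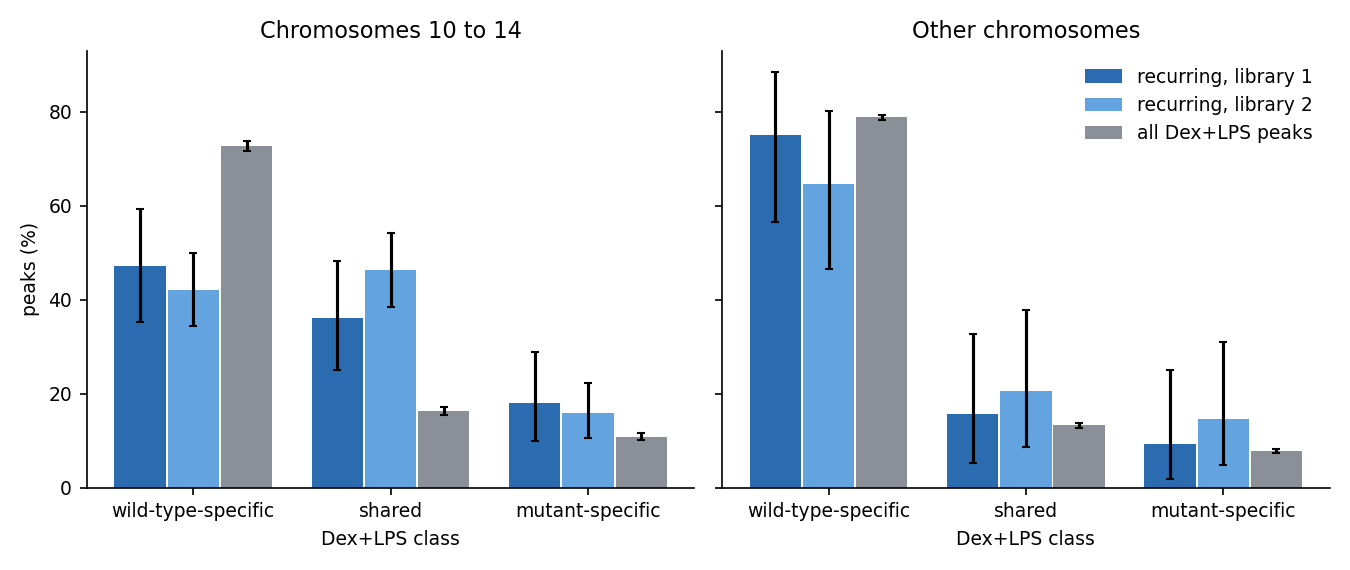
Share of recurring wild-type Dex peaks (%, vertical axis) at each Dex+LPS class in library 1 (dark blue) and library 2 (light blue), beside the class's share of all Dex+LPS peaks (grey); bars are exact 95% intervals for counting error. On chromosomes 10 to 14 the wild-type-specific share was 47.2% and 42.1% against 72.7%, and on the others 75.0% and 64.7% against 78.8%.

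Most sites overlapping a peak of both wild-type libraries lay at wild-type-specific peaks, but so did 76.8% of all Dex+LPS peaks. Of the 29 such sites, 19 lay at wild-type-specific peaks (65.5%, 45.7 to 82.1%), 6 at shared and 4 at mutant-specific peaks. Of the 247 sites in 1 library, 112 lay at wild-type-specific peaks (45.3%, 39.0 to 51.8%, an interval that overlaps the former), 103 at shared and 40 at mutant-specific peaks. Outside chromosomes 10 to 14, the 12 sites in both libraries comprised 11 wild-type-specific peaks (91.7%, 61.5 to 99.8%) and 1 mutant-specific peak. Of all Dex+LPS peaks there, 78.8% were wild-type-specific. Of the 17 on chromosomes 10 to 14, 8 were wild-type-specific (47.1%, 23.0 to 72.2%), against 72.7% of all Dex+LPS peaks there. The difference between the site groups was not tested.

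Among these sites, those nearest a gene start were at A230028O05Rik (0.205 kb upstream, chr16:25059233-25059635), Fkbp5, Per1 and Serpinb9g, a serine protease inhibitor (8.36 kb upstream, chr13:33476207-33476560). Frmd8, a FERM domain protein, came next, with its site 25.0 kb inside the gene (chr19:5850095-5850464). It was the only site outside chromosomes 10 to 14 that both libraries shared at a mutant-specific peak. The others of the nearest 15 were wild-type-specific except for the shared sites near Fam240b (87.6 kb upstream) and in Pde4d, a cAMP phosphodiesterase (65.1 kb inside), and the mutant-specific site in Clvs2 (50.2 kb inside). At Pde4d and Clvs2 only the peak of library 1 recurred. The wild-type-specific ones included Anapc16, a subunit of the anaphase-promoting complex (28.9 kb downstream of the start), Zhx3, a zinc finger and homeobox factor (67.6 kb inside), and Adra1b, the alpha-1B adrenergic receptor (91.0 kb upstream). Tarm1, 1600010M07Rik, Klf13 and Zbtb16 completed them.

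Peaks listed as mutant-specific under Dex+LPS were also hit by wild-type Dex peaks, at 44 of the 276 sites (15.9%). By peaks, 44 of the 2187 mutant-specific peaks were overlapped (2.01%), against 287 of all 24673 Dex+LPS peaks (1.16%). Of the 44 sites, 37 lay on chromosomes 10 to 14. After 4930448C13Rik, with a site 5.22 kb upstream of its start, the nearest were Mir378d (7.64 kb downstream), 4930512M02Rik (11.7 kb inside) and Zfp981 (11.8 kb upstream). Nubpl, an assembly factor for respiratory complex I, had a site 14.1 kb upstream, and Eci2, an enzyme of fatty acid oxidation, one 17.8 kb upstream. Pdk4, Gm10375, AU022793 and Frmd8 followed, at 18.1 to 25.0 kb. Of these 10, Frmd8 alone was called in both libraries. Each of these 10 sites thus holds a peak called in wild-type cells under Dex that overlaps a peak listed for the mutant only. The overlap ranged from 84 bp at Mir378d, with middles 431 bp apart, to the whole 200 bp at Pdk4 and others. The names of the Dex lists mention no removal of knockout peaks, so a called peak alone does not show binding of the receptor.

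Most recurring peaks were called in 1 wild-type Dex library only, and none was called in a mutant Dex library. In library 1, 28 of 104 recurring peaks overlapped a peak of library 2 (26.9%, 18.7 to 36.5%), against 156 of the 308 other peaks (50.6%, 44.9 to 56.4%) and 44.7% of all 412. In library 2, 27 of 198 overlapped a peak of library 1 (13.6%, 9.18 to 19.2%), against 155 of 656 others (23.6%, 20.4 to 27.1%) and 21.3% of all 854. On chromosomes 10 to 14 the recurring and other shares were 22.2% and 42.6% in library 1, and 9.15% and 19.1% in library 2. Outside them the shares were 37.5% and 67.7% in library 1 but 35.3% and 34.9% in library 2, so the gap was seen in library 1 alone there. The difference between recurring and other peaks was not tested.

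Not one recurring peak overlapped either mutant Dex list. The count was 0 of 104 and 0 of 198, which allows up to 2.88% and 1.52% by the floor of 3 counts of each total. The exact 95% intervals, two-sided, reach 3.48% and 1.85%. Of the other wild-type Dex peaks, 42 of 308 in library 1 (13.6%, 10.0 to 18.0%) and 48 of 656 in library 2 (7.32%, 5.44 to 9.58%) did so. Over all wild-type Dex peaks the shares were 10.2% and 5.62%. Overlaps with the mutant were more frequent among other peaks outside chromosomes 10 to 14, at 32.3% and 20.1%, than on them, at 4.78% and 2.14%. The mutant lists were short, with 113 peaks together, of which 2 overlapped a Dex+LPS peak: 1 in Ncoa1, a receptor coactivator, at a shared peak and 1 in 9530036O11Rik at a wild-type-specific peak. Dex+LPS lists without knockout peaks were compared here with Dex lists whose names state no such step, and the part of that step in the count of 0 was not tested. In an alternative added after the data had been seen, peaks of the mutant lists were left out. Of the remaining other peaks, 44.0% (37.9 to 50.2%) and 19.2% (16.2 to 22.6%) were found in the other wild-type library. For recurring peaks it stayed at 26.9% (18.7 to 36.5%) and 13.6% (9.18 to 19.2%), so the intervals overlapped in library 2. Outside chromosomes 10 to 14 the remaining other peaks gave 53.7% and 23.8%, against 37.5% and 35.3% of recurring peaks. The order was thus reversed in library 2 there. On chromosomes 10 to 14 it was 40.7% and 17.7% against 22.2% and 9.15%.

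**Figure D4:**
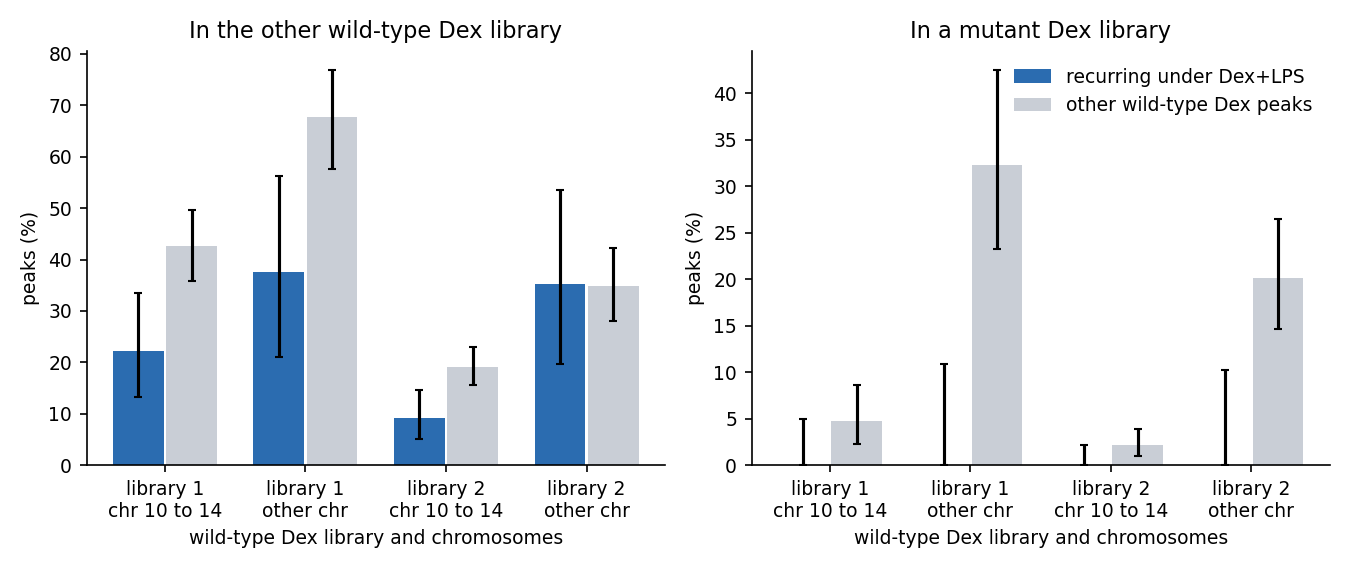
Share of recurring (blue) and other (grey) wild-type Dex peaks (%, vertical axis) that overlap a peak of the other wild-type Dex library (left) or of either mutant Dex library (right), by library and chromosomes; bars are exact 95% intervals for counting error. No recurring peak overlapped a mutant Dex peak, while 32.3% and 20.1% of the other peaks outside chromosomes 10 to 14 did.

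Recurring peaks, like the other wild-type Dex peaks, lay far from gene starts. About 1 in 3 recurring peaks lay within a gene. The deposited annotation put 37.5% of them inside a gene in library 1 (28.2 to 47.5%) and 30.3% in library 2 (24.0 to 37.2%). For the other Dex peaks it was 20.8% (16.4 to 25.7%) and 24.5% (21.3 to 28.0%), and for the 3 Dex+LPS lists 44.1 to 47.6%. Outside chromosomes 10 to 14, 59.4% and 44.1% of recurring peaks against 22.2% of others in each library were inside a gene. The Dex+LPS lists, on whose peaks recurring peaks lie by the rule, had 48.1 to 56.3% inside a gene there. The shares on chromosomes 10 to 14 were 27.8% and 27.4% against 20.1% and 25.5%, and 32.1 to 41.7% for the Dex+LPS lists.

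The middle of the peak was within 5 kb of a gene start for 4 of 104 (3.85%) and 5 of 198 recurring peaks (2.53%). The other wild-type Dex peaks were similar, with 6 of 308 (1.95%) and 15 of 656 (2.29%). Among Dex+LPS peaks it was 17.1% (wild-type-specific), 22.0% (shared) and 28.9% (mutant-specific). No recurring peak covered a gene start. Their median distance from a start came to 125 kb in each library, against 170 and 150 kb for the other Dex peaks. For Dex+LPS peaks the median was 42.3 kb (wild-type-specific), 37.2 kb (shared) and 20.8 kb (mutant-specific). The order of recurring and other peaks was not the same in each chromosome group. On chromosomes 10 to 14 the medians were 187 and 133 kb for recurring against 185 and 180 kb for other peaks, and elsewhere 49.3 and 74.8 kb against 130 and 77.6 kb. The annotation itself can be wide of the mark: it placed 1 site of both libraries on chromosome 19, picked out for its value, inside Mir3084-2, at 33516 kb from that start.

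The overlap rule largely sets how closely the paired positions coincide, so these values describe the pairs only. The median distance between the middles of a Dex peak and its Dex+LPS peak was 50 bp over 105 pairs in library 1 and 64.5 bp over 208 pairs in library 2. Dex+LPS peaks were all 200 bp wide, and the median overlap was 185 and 193 bp. Recurring Dex peaks had a median width of 261.5 and 292 bp, and the others 276 and 299.5 bp. The limit of the rule cut through a dense set of positions, with 45 and 109 of the other peaks within 500 bp of a Dex+LPS peak. The smallest overlaps were 1 bp at Gm21119, 2 bp at Pcsk1 and 5 bp at Slc1a6, and the nearest peaks left out had gaps of 0 bp at Cep128 and 1 bp at 4930467J12Rik and Immp2l.

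The rule also left out many Dex peaks that lay close to a Dex+LPS peak without touching it. On chromosomes 10 to 14, the median gap from an other wild-type Dex peak to the nearest Dex+LPS peak was 1.27 kb in library 1 (n = 209) and 1.22 kb in library 2 (n = 467). Of these peaks, 73.2% (66.7 to 79.1%) and 70.7% (66.3 to 74.8%) had one within 10 kb. For the mutant Dex peaks there, 2 of 14 and 6 of 18 did, with median gaps of 59.6 and 32.6 kb. Elsewhere the other wild-type peaks had median gaps of 25.0 and 12.5 kb. Most of the peaks that the rule left out on chromosomes 10 to 14 were thus near neighbours of a Dex+LPS peak.

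Recurring peaks also had a further Dex+LPS peak that they did not overlap. The median gap to it was 2.49 and 1.58 kb on chromosomes 10 to 14, wider than for the other Dex peaks there, and 5.60 and 12.4 kb elsewhere, narrower than for the others in library 1 and close to them in library 2. These are unlike measures, because the rule takes the overlapped peak out of the gap for recurring peaks only. For the other peaks the gap runs to the nearest peak of all. A wider gap is thus partly built in, as is a lower share within 1 kb. Within 1 kb on chromosomes 10 to 14, 25.0% (15.5 to 36.6%) and 34.8% (27.5 to 42.6%) of recurring peaks had such a neighbour, against 45.5% (38.6 to 52.5%) and 45.0% (40.4 to 49.6%) of the others. Dex+LPS peaks had their own nearest neighbour at a median of 9.23 kb when wild-type-specific, 2.94 kb when shared and 1.74 kb when mutant-specific on chromosomes 10 to 14. On the other chromosomes these medians were 13.1, 6.22 and 1.79 kb. Shared and mutant-specific peaks, whose shares were larger among recurring peaks than in the merged lists, also had the closest neighbours. The part of this clustering in the overlaps was not tested.

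**Figure D5:**
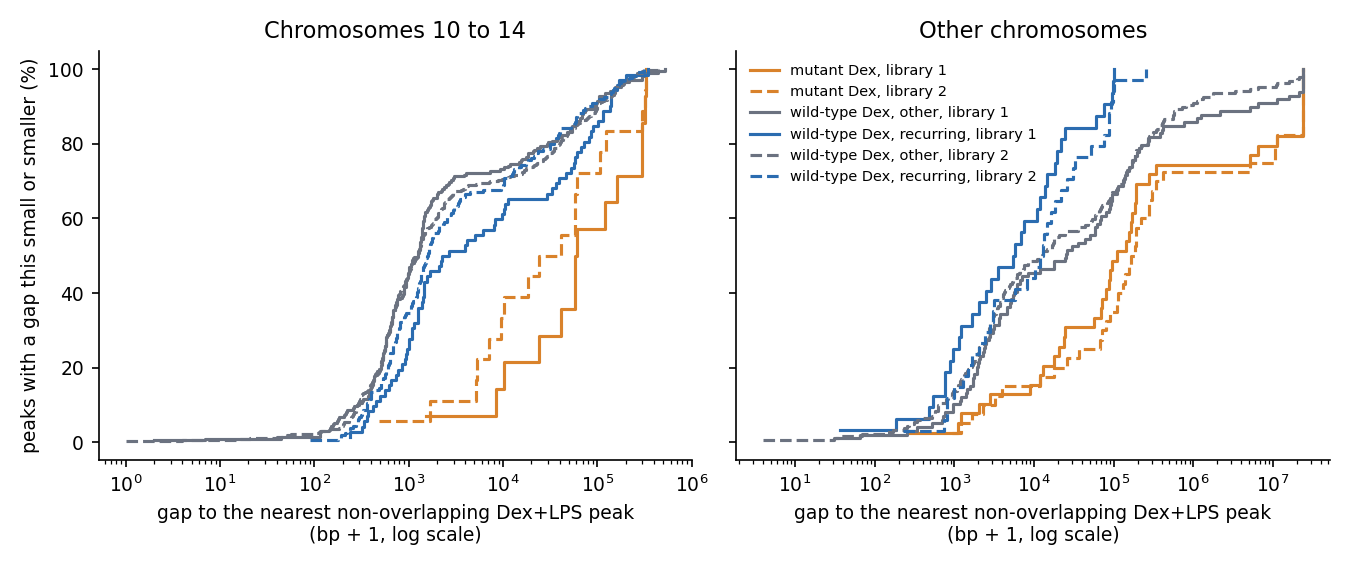
Cumulative share of Dex peaks (%, vertical axis) by the gap to the nearest Dex+LPS peak that they do not overlap (bp + 1, log scale), for recurring wild-type (blue), other wild-type (grey) and mutant Dex peaks (orange; the 2 overlapping ones left out), library 1 solid and library 2 dashed. For recurring peaks the Dex+LPS peak that they overlap is left out of the gap. On chromosomes 10 to 14, 73.2% and 70.7% of the other wild-type Dex peaks had a Dex+LPS peak within 10 kb, against 2 of 14 and 6 of 18 mutant Dex peaks.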

How the data were processed

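Peaks of GR ChIP-seq were taken as the authors deposited them: positions in base pairs, with a gene, a position relative to it and a distance, per the file headers. MACS2 2.1.0, BWA 0.7.13, Picard 1.119 and build mm10 are listed, with no role, per the submitters' processing notes. How libraries were merged, which peaks were removed, read depth and peak heights are not given in the sources used here, so no depth, height or change in signal is reported, and no peak seen in 1 list only can be called absent from another. The names of the deposited lists mention a false discovery threshold for Dex and the removal of knockout peaks for Dex+LPS.

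Overlaps of at least 1 bp were computed with Python 3.11.15, pandas 2.3.3 and numpy 2.4.6, and tested on simulated intervals and against bedtools 2.31.1. Shares carry exact Clopper-Pearson 95% intervals (scipy 1.17.1). They cover counting error only. Peaks of a library are not replicates, and nothing says whether the 2 libraries of a group are separate cultures, so no test was run. All 231 gene identifiers matched RefSeq. Motifs were searched in 32851 RefSeq windows on both strands.

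The sites, gene lists and rule for named genes were chosen with earlier results of these data known. Named genes are listed genes with a recurring site, the 15 both-library sites and 10 mutant-specific sites nearest a start, sites also in both mutant Dex libraries (there were 0), genes with 3 or more sites, the 5 widest peaks, and the 3 peaks on each side of the overlap limit. Alternatives were a 100 bp overlap, peak centres, a 500 bp gap, merged sites, both-library peaks, leaving out chromosomes 10 to 14 and leaving out each Dex library.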

Additional observations from a re-analysis of the deposited data

How the results depend on the processing

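As means of the 2 libraries, 24.2% of wild-type Dex peaks recurred. An overlap of at least 100 bp gave 21.4%, the centre rule also 21.4% and a gap of up to 500 bp 36.1%. Without chromosomes 10 to 14 the recurring share was 19.8%, wild-type-specific, shared and mutant-specific shares were 69.9%, 18.1% and 12.0% (50.9%, 35.9% and 15.5% with them), and 36.4% of recurring peaks were in the other wild-type library (20.3% with them). The share of other peaks in a mutant library was 26.2% (10.5% with them). Likewise 51.7% of recurring peaks were inside a gene, 7.63% within 5 kb of a start, and the median distance was 62.1 kb. Sites in both libraries alone gave 65.5%, 20.7% and 13.8% for the 3 classes, and sites merged across libraries 15.9% mutant-specific. The other 34 values under alternatives differed from the main value by no more than the SD of the 2 libraries. Where a wild-type library was left out, this limit could not be passed, because each library always lies within that SD of their mean. The limit was also wide where the libraries differed. Without chromosomes 10 to 14, 51.3% of other peaks were in the other wild-type library (37.1% with them, SD 19.1), a shift within the limit. The 7 listed genes with a recurring site kept it under the 100 bp and centre rules.

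Leaving out each wild-type library gave recurring shares of 23.2 to 25.2%, wild-type-specific 46.0 to 55.8%, shared 29.8 to 41.9% and mutant-specific 15.4 to 15.7%. It gave 30.3 to 37.5% inside a gene, 2.53 to 3.85% within 5 kb and median distances of 125 kb. Leaving out each mutant library gave 7.46 to 8.01% of other peaks in a mutant list and 0% of recurring peaks. No paired analysis was possible because no result comes from a test: each value is a share of peaks in 1 library, counted against whole lists. Read depth is unknown, so a peak missing from a list may be one that was not called.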
